A study of Mus musculus with 4 samples.

Results

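The 10 genes followed here through the cells of mouse tumors are immediate early genes: the orphan nuclear receptors Nr4a1, Nr4a2 and Nr4a3, the zinc finger factors Egr1, Egr2 and Egr3, and the AP-1 subunits Fos, Fosb, Jun and Junb. They were chosen by name, as 10 of the 32285 genes in the deposited matrices. Immediate early genes are switched on by signals without the need for new protein, and their RNA is short-lived. In lymphocytes, calcium and NFAT signals from the antigen receptor induce the Nr4a genes and Egr2 and Egr3, and the Nr4a factors are known for the dysfunctional state of T cells in tumors. Fos, Fosb, Jun, Junb and Egr1 respond to growth factors and stress through the MAP kinases, and in single-cell studies they are also known to rise while tissue is dissociated. The levels below are therefore levels in dissociated suspensions, in which induction in the tumor and during dissociation cannot be told apart.

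Windows of 250 bases upstream of the annotated start were available for 8 of the 10 genes (RefSeq, GRCm38.p6), the exceptions being Egr1 and Egr3. The windows of Nr4a1, Nr4a2, Fos and Jun are shown, 4 of the genes compared below between lymphoid, myeloid and tumor cells. The window of Nr4a3, also prominent in those contrasts, overlaps an annotated exon and is not printed. Capitals mark the CRE core TGACG, or CGTCA where it lies on the other strand, the pentamer bound by CREB and ATF factors.
Nr4a1: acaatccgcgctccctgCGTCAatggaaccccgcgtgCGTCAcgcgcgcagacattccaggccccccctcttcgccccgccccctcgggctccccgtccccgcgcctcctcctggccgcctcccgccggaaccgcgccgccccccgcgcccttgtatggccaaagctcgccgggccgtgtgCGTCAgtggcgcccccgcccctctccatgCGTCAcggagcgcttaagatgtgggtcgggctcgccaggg
Nr4a2: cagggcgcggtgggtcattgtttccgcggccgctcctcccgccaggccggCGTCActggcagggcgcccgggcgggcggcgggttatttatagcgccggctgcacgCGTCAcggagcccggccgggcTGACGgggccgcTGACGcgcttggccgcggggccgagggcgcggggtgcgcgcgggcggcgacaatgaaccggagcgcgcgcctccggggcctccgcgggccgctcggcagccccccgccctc
Fos: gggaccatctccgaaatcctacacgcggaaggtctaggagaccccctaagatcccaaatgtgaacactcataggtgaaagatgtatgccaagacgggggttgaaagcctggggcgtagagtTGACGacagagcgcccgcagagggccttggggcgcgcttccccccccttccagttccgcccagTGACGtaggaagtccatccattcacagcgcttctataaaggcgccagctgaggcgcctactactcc
Jun: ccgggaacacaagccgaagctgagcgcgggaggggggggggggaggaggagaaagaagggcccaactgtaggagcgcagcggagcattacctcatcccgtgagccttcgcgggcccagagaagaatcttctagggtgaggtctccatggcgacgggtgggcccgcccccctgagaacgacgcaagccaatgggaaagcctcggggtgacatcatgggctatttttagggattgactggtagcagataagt
On the mouse genome these windows are chr15:101266596-101266845 on the plus strand (Nr4a1), chr2:57124004-57124253 on the minus strand (Nr4a2), chr12:85473640-85473889 on the plus strand (Fos) and chr4:95052223-95052472 on the minus strand (Jun), and none of the 4 overlaps an annotated exon. The core occurred 4 times in the Nr4a1 window and 4 times in the Nr4a2 window, and also 4 times in that of Nr4a3. The Fos window held it 2 times and the Jun window 0 times. Of 32851 windows of the same length in the mouse annotation, 17.8% held the core at least once on either strand and 0.137% held it 4 or more times. The 3 Nr4a genes therefore shared a count of this pentamer that few promoter windows reach. All windows were counted, without matching them for base composition. Among other motifs sought on both strands, GCGNGGGCG, the EGR site, was present in the windows of Nr4a1, Nr4a2 and Fosb and in 4.7% of all windows. The CArG box of serum response factor occurred in 4 annotated Egr2 windows, of which 3 overlap and hold the same site, and in 1.47% of all windows. A match describes letters and says nothing of binding.

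The study compared WT mice with Lrrc25-/- mice, which lack a leucine-rich repeat membrane protein of myeloid cells, as hosts of the transplanted lines B16F10 (melanoma, taken on day 14) and MC38 (colon carcinoma, taken on day 26). Each of the 4 single-cell libraries pooled 100 mm3 of tumor from each of 3 untreated mice of 1 genotype and model, so there is 1 library per group and the spread between mice is not visible. CD45+ cells isolated on beads were mixed 5 to 1 with the unsorted suspension. Both genotypes carried the same implanted lines, so tumor cells of Lrrc25-/- hosts keep their own Lrrc25 gene, and the labels state neither strain nor age. The labels give tumor cells as the cell type of every library, but macrophages were the most numerous gated class.

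The libraries held 10490 to 18545 barcodes and 105338548 to 138841749 molecules counted by unique molecular identifier (UMI), and 9319 to 15792 cells were kept. The median cell had 9674 UMIs in the WT B16F10 pool and 4343.5 to 5459 in the other 3 pools. Between 96 and 247 barcodes were shared by any pair of libraries. In monocytes and macrophages Lrrc25 stood at 166 CPM (UMIs of the gene per 1000000 UMIs of the class) for WT hosts and at 4.92 CPM for Lrrc25-/- hosts of B16F10, and at 96.3 and 2.01 CPM for the same genotypes with MC38. The pools labelled Lrrc25-/- were thus far below those labelled WT. Cells were assigned to classes from marker UMIs that included none of the 10 genes, and 30.8% to 38.6% of kept cells met no gate. The 7 classes with at least 50 cells in every library were CD8 T cells (158, 515, 531 and 767 cells), regulatory T (Treg) cells (58, 86, 66 and 133), natural killer (NK) cells (50, 115, 122 and 184), monocytes and macrophages (3235, 3831, 7097 and 7002), neutrophils (53, 307, 125 and 200), migratory dendritic cells (63, 197, 155 and 162) and tumor cells (2550, 1562, 1491 and 943). Here and below, 4 values in a row follow the libraries in a fixed order, B16F10 before MC38 and, inside each model, WT before Lrrc25-/-.

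**Figure D1:**
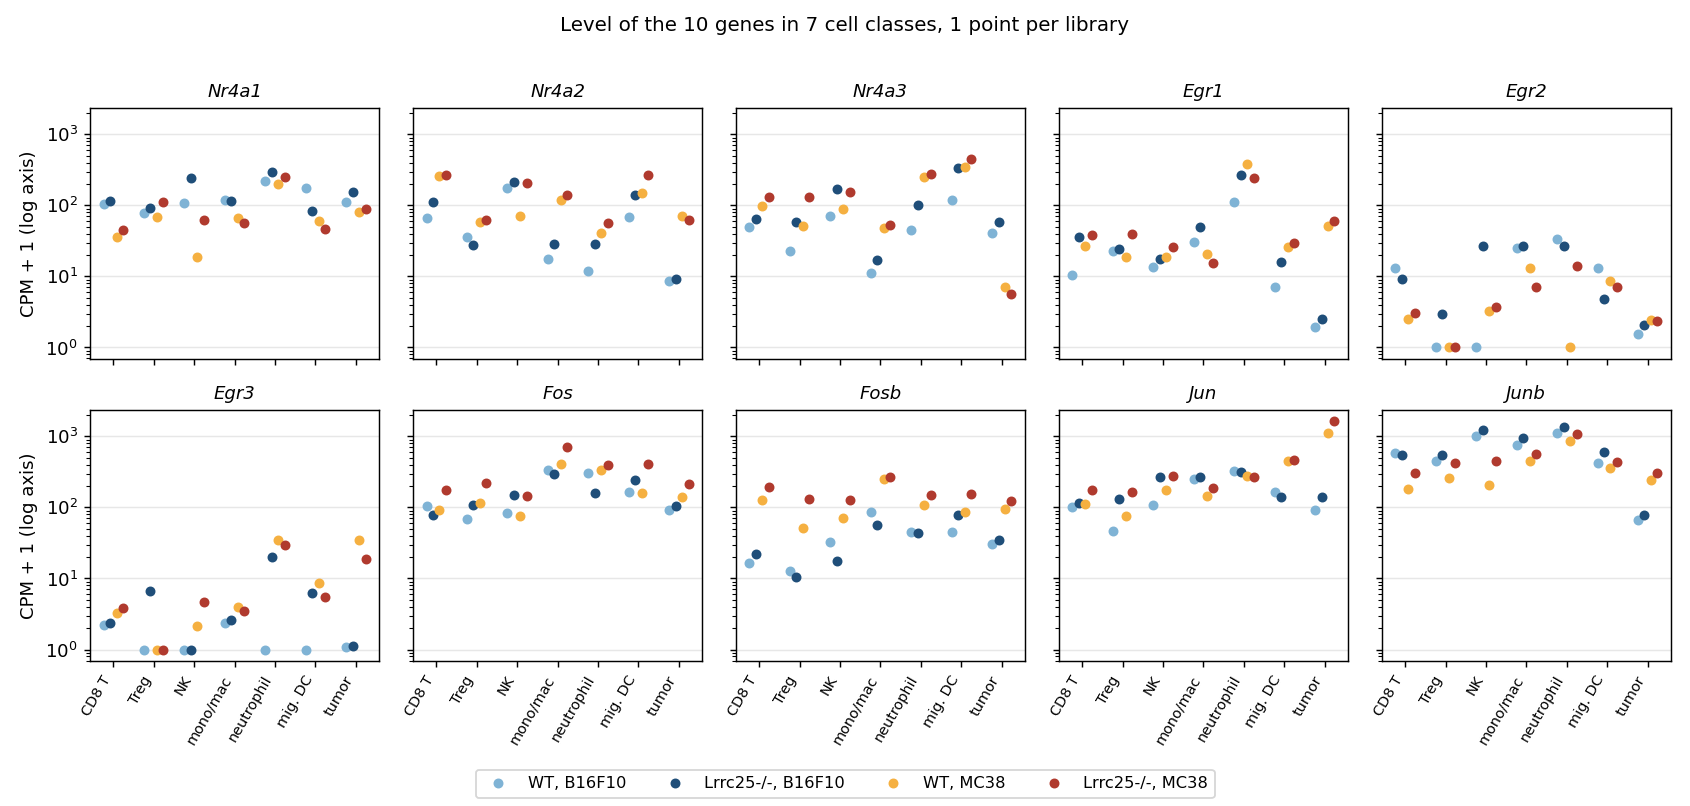
Level of each of the 10 genes (CPM + 1, log axis) in 7 cell classes, with 1 point per library. Jun in MC38 tumor cells (1121 and 1634 CPM) stands above every other class, whereas Junb is lowest in B16F10 melanoma cells (64.7 and 77.0 CPM).

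The Nr4a receptors did not share a pattern across the classes. Nr4a2, the member known for NFAT-driven induction in T cells, was measured at 66.3, 109, 262 and 269 CPM in CD8 T cells and at 16.6, 27.2, 119 and 139.7 CPM in monocytes and macrophages. In every library the CD8 T cells lay above the macrophages, although the macrophages of MC38 overlapped the CD8 T cells of B16F10. Nr4a3, its close paralog, was at 48.2, 63.4, 96.9 and 131 CPM in CD8 T cells against 10.1, 15.9, 46.6 and 52.5 CPM in macrophages, the same order within each library. Nr4a1, also called Nur77 and used as a reporter of antigen receptor signals, was at 104, 113, 35.5 and 44.4 CPM in CD8 T cells and at 119, 114, 65.6 and 56.3 CPM in macrophages. For this receptor the CD8 T cells were below the macrophages in all 4 libraries and closest to them in the Lrrc25-/- B16F10 pool.

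Migratory dendritic cells, which carry antigen to lymph nodes, held the highest Nr4a3 level of the 7 classes in every library, at 118, 336, 345 and 455 CPM. They also held 68.2, 141, 150.3 and 269.9 CPM of Nr4a2, with both Lrrc25-/- values above their WT counterparts. Neutrophils were the class with the highest Nr4a1 level among the 7 in each library (218, 295, 200.2 and 248 CPM). Their Nr4a2 level was among the lowest, at 10.9, 27.7, 40.03 and 54.8 CPM. In NK cells, which have no rearranged antigen receptor, Nr4a2 stood at 176, 213, 68.9 and 203 CPM and Nr4a3 at 69.0, 167, 87.8 and 151 CPM. These NK levels overlapped those of CD8 T cells for both receptors. Treg cells, the Foxp3+ suppressive T cells, held 35.2, 26.9, 56.9 and 60.9 CPM of Nr4a2, less than the CD8 T cells of the same library in all 4 cases.

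The share of cells with a UMI gave the same contrast between CD8 T cells and macrophages once every cell was thinned to 1000 UMIs. Nr4a2 was seen in 5.92%, 12.2%, 18.5% and 22.7% of thinned CD8 T cells and in 2.1%, 3.47%, 10.4% and 12.6% of thinned macrophages. In melanoma cells, which served as a class low in this gene, the shares were 0.706% and 0.704%. Nr4a2 and Nr4a3 were the 2 of the 10 genes with a higher share in CD8 T cells than in macrophages in all 4 libraries. Without thinning, Nr4a2 was seen in 22.8%, 29.1%, 56.1% and 56.5% of CD8 T cells and in 10.9%, 17.4%, 35.7% and 44.6% of macrophages.

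Egr2 and Egr3 were low in CD8 T and Treg cells. Egr2, which limits T cell activation and is linked to anergy, reached 12.1, 8.27, 1.48 and 2.1 CPM in CD8 T cells, from 10, 18, 4 and 8 UMIs. Macrophages held 24.3, 26.2, 12.3 and 6.07 CPM of Egr2, above the CD8 T cells of every library. In Treg cells 0, 1, 0 and 0 UMIs of Egr2 were counted, too few to compare. Egr1 was highest among the 7 classes in neutrophils in every library (109, 271, 387 and 242 CPM). In CD8 T cells Egr1 stood at 9.65, 35.4, 26.3 and 36.8 CPM and in macrophages at 29.7, 48.7, 19.6 and 14.5 CPM, so the order of the classes turned between the tumor models.

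Tumor cells of the lines differed widely in the Egr genes. Egr1 was at 0.962 and 1.56 CPM in B16F10 melanoma cells and at 50.4 and 59.2 CPM in MC38 tumor cells. Egr3, which acts downstream of the same kinases, was at 0.0776 and 0.118 CPM in melanoma cells and at 33.4 and 18.1 CPM in MC38 cells. In neither gene did the lines overlap. Egr3 in macrophages was rare: 1.11%, 1.25%, 1.39% and 1.56% of these cells held a UMI, and the levels were 1.34 to 2.96 CPM.

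Among the 7 classes, the highest level of each AP-1 subunit lay in macrophages, neutrophils or migratory dendritic cells, with 1 exception. Fos, the partner of the Jun proteins in inducible AP-1, was at 333, 298, 406 and 708 CPM in macrophages and at 104, 76.7, 91.0 and 174 CPM in CD8 T cells. The lowest macrophage value lay above the highest CD8 T cell value. After thinning to 1000 UMIs, Fos was seen in 24.8%, 24.6%, 27.1% and 41.6% of macrophages and in 7.89%, 5.61%, 9.07% and 13.6% of CD8 T cells. Fosb, a relative of Fos, was at 84.0, 55.1, 249 and 265 CPM in macrophages and at 15.7, 21.1, 126 and 195 CPM in CD8 T cells. Both classes were higher in MC38 than in B16F10, and within each library the macrophages were higher.

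Junb, which supports effector and Treg programs and can restrain Jun, was at 592, 546, 178 and 304 CPM in CD8 T cells and 760.2, 934, 444 and 573 CPM in macrophages. Neutrophils held 1133, 1343, 861 and 1084 CPM of Junb, the highest level of the 7 classes in each library. The exception among the AP-1 genes was Jun in MC38 tumor cells, at 1121 and 1634 CPM, where 57.9% and 70.6% of cells thinned to 1000 UMIs held a UMI. Melanoma cells held 90.8 and 139 CPM of Jun and macrophages 249, 269, 143 and 184 CPM. Among the 7 classes, no other reached the MC38 tumor cells for Jun. Of the markers of these MC38 cells, Tnnt2 stood at 358 and 444 CPM, while the keratin Krt18 had 0 UMIs in both pools. Whether all of them are carcinoma cells was not tested.

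Free RNA gives UMIs in droplets of other cells, so 4 abundant macrophage genes (C1qa, C1qb, C1qc and Lyz2) were followed in the same sums. In CD8 T, Treg, NK and tumor cells their summed level was 1.14% to 6.11% of that in macrophages of the same library. Fos in those classes was 18.3% to 50.6% of its macrophage level. Of the 14 macrophage markers listed, 11 to 14 were detected in each of these sums. In CD8 T cells the 4 genes summed to 1093, 468, 199.7 and 513 CPM, highest in the WT B16F10 pool. The fits of CD8 T cells (against macrophages, by genotype and by model) were repeated on cells without a UMI of the 4 genes. So were the within-model genotype values of CD8 T cells in both models and of Treg and NK cells in MC38. In the WT B16F10 pool 6 Treg cells and 19 NK cells were left, too few to repeat theirs. For the other results below the part of this RNA was not tested. RNA of tumor cells was not followed in this way. The melanoma gene Pmel stood at 148 and 128 CPM in CD8 T cells of the B16F10 pools, against 4898 and 6098 CPM in melanoma cells. The part of tumor RNA was tested for no result.

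The class differences were then tested with the library as a block, in edgeR's quasi-likelihood fit over 8 sums (2 classes in 4 libraries). Against monocytes and macrophages, 8 of the 10 genes differed in CD8 T cells at an adjusted p under 0.05. Of all 14418 genes tested, 21.8% were higher and 25.7% lower in CD8 T cells, so a difference between these cell types is common. Nr4a3 was higher by 1.35 on the log2 scale (SE 0.215, adjusted p = 0.00157) and Nr4a2 by 1.24 (SE 0.216, adjusted p = 0.00246). Fos was lower, with a log2 difference of -2.22 (SE 0.138, adjusted p = 1.98e-05). Egr2 (-1.99), Fosb (-1.44), Junb (-1.10), Jun (-0.995) and Nr4a1 (-0.61) were lower too. Egr1 (-0.14, SE 0.395) and Egr3 (-0.37, SE 0.344) did not pass the test.

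Nr4a1 was the least stable of these calls. Its adjusted p was 0.0760 without the WT MC38 pool, 0.0803 without the Lrrc25-/- MC38 pool, 0.126 on library totals without TMM scaling and 0.585 with classes from clusters. On cells without a UMI of the 4 macrophage genes the same 8 genes were called in the same directions. The list of genes known to follow antigen receptor signals stood higher in CD8 T cells in 16 and lower in 1 of 23 measured, with a median of 2.54 against -0.03 over all genes. Its leading genes were Pdcd1 (7.94), the inhibitory receptor PD-1, and Ifng (7.93), interferon gamma. Of 27 measured genes of a dissociation-linked list, 15 were lower and 3 higher (median -0.95). The leading genes of the first list are T cell genes, so its direction between these classes is no measure of antigen receptor signals.

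Within lymphoid cells fewer members differed. Treg cells were lower than CD8 T cells in Nr4a2 by a log2 difference of -2.02 (SE 0.223, adjusted p = 0.000139) and in Fosb by -0.99 (SE 0.219, adjusted p = 0.0123), 2 of 8 genes tested, where 5.46% of 7686 genes were lower and 5.49% higher. The Fosb call did not stand without the WT MC38 pool (adjusted p = 0.0843). The other 6 genes tested differed by -0.56 to 0.19, with SEs of 0.172 to 0.296. NK cells were higher than CD8 T cells in Jun by 0.79 (SE 0.189, adjusted p = 0.0174) and in Junb by 0.72 (SE 0.166, adjusted p = 0.0144), 2 of 9 tested, against 5.01% of 8579 genes higher. Both NK calls were lost without either of the Lrrc25-/- libraries, with adjusted p from 0.0841 to 0.160 (Jun) and 0.0945 to 0.103 (Junb). With classes from clusters neither was called, and Fosb was lower in NK cells (-0.75, adjusted p = 0.00669).

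Neutrophils were higher than macrophages in Egr3 (3.14, SE 0.614), Egr1 (2.99, SE 0.347), Nr4a3 (2.20, SE 0.341) and Nr4a1 (1.23, SE 0.320), against 11% of 13383 genes higher. The Egr3 value rests on only 0, 9, 5 and 9 UMIs in neutrophils. The median over all genes was -0.85, and 29% of genes were lower. Nr4a2 (-1.10), Fosb (-1.07) and Fos (-0.86) were called lower, close to that median, and none of the 3 was called by DESeq2, whose scaling put the median at 0.07. Under DESeq2 Junb was called higher (0.80, adjusted p = 0.00742). Nr4a1 missed the threshold without the Lrrc25-/- MC38 pool (adjusted p = 0.0564). Summed macrophage markers in neutrophils were 3.97% to 13.6% of the macrophage level.

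Tumor cells were set against macrophages within each model, over 4 sums with 1 residual degree of freedom. Melanoma cells were lower in 8 of the 10 genes and higher in 1, where 37.6% of 14816 genes were lower and 38.8% higher. Egr2 (-5.33, SE 0.186), Egr1 (-5.26, SE 0.125), Egr3 (-4.21, SE 0.442) and Junb (-3.88, SE 0.0830) were the furthest down, and Nr4a3 was higher (1.61, SE 0.1002). MC38 tumor cells were higher in Egr3 (2.78, SE 0.172), Jun (2.66, SE 0.0811) and Egr1 (1.29, SE 0.152) and lower in 6 genes, led by Nr4a3 (-3.59, SE 0.147), against 39.6% of 15254 genes higher and 39.5% lower. Nr4a1 passed in neither model (-0.13, SE 0.114, and 0.08, SE 0.104). Nr4a3, Egr1, Egr3 and Jun therefore stood on opposite sides of the macrophages in the 2 lines, and Fos (-2.00 and -2.03) on the same side by like amounts.

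**Figure D2:**
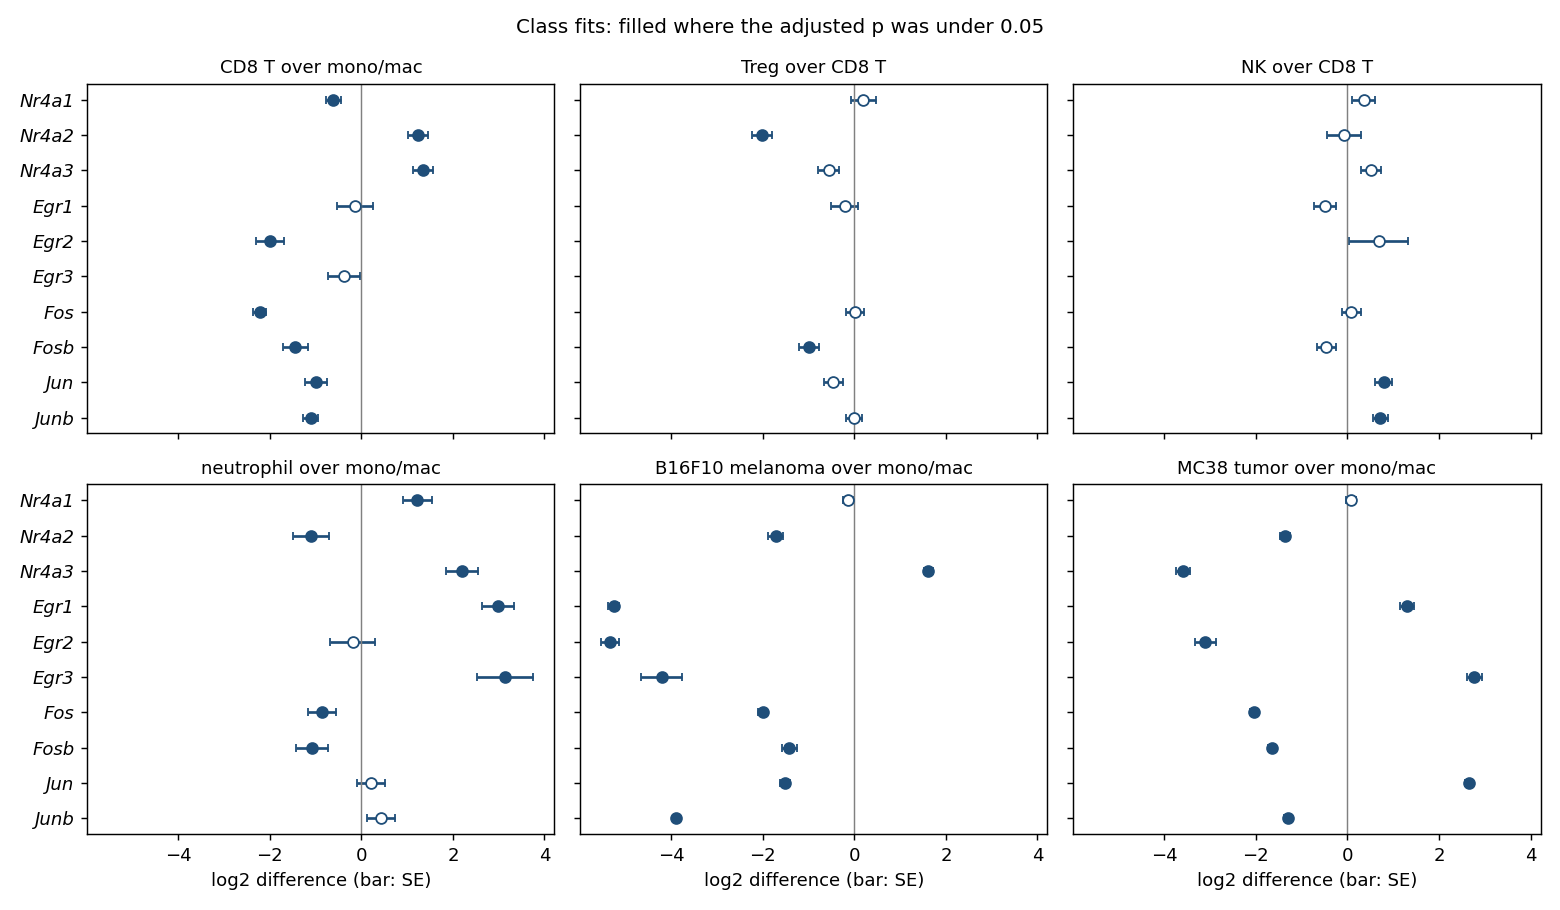
Log2 differences between classes for the 10 genes in 6 edgeR fits, with SE bars and filled points where the adjusted p was under 0.05. In the CD8 T cell panel Nr4a2 and Nr4a3 lie right of 0 and the AP-1 genes left of it.

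Likeness across sums of class and library was described with Spearman correlations over 35 sums, which share libraries and depth, and carries no p. Fos and Fosb varied most alike (0.63), followed by Nr4a1 and Junb (0.60), Nr4a2 and Nr4a3 (0.59) and Egr1 and Egr3 (0.58). Nr4a1 and Nr4a2 ran opposite (-0.47). Over the 10 pairs among Nr4a1, Nr4a2, Nr4a3, Egr2 and Egr3 the median was 0.03, over the 10 pairs among Fos, Fosb, Jun, Junb and Egr1 it was 0.35, and over the 25 pairs between these groups 0.17. Pairs with Egr2 or Egr3 rest on few UMIs in many sums, with 1 UMI of Egr2 in all Treg sums together. Low values of those pairs therefore cannot show that the genes vary apart, and many sums are not of lymphocytes. Among the Nr4a genes, Nr4a1 did not follow Nr4a3 (0.004) across these sums, while Nr4a2 and Nr4a3 varied alike. Among 10783 genes, the pattern of Fos was most like that of Cebpb (0.81), a myeloid transcription factor, Nfe2l2 (0.80), Lamp2, Nfkbiz and Dram1. Egr2 was most like Gpx3 (0.69), Prxl2b, Lpl, Cd36 and Zfp36. Nr4a1 was most like Mgll (0.74), Ss18l2, Selenok, S100a9 and Sra1, and Jun was most like Ywhag (0.68), 4833418N02Rik, Klf10, Hspa5 and Ifrd1.

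Joint detection in single cells is given as a ratio to the product of the separate shares, with no test. Among thinned macrophages, cells with both Fos and Jun numbered 200, 255, 329 and 561, which is 1.27, 1.41, 1.38 and 1.11 times the product of the separate shares. For Fos and Fosb the same ratios were 1.34, 1.37, 1.11 and 1.09. In thinned CD8 T cells Nr4a2 and Nr4a3 were found together in 1, 5, 17 and 38 cells, 1.88, 1.51, 1.76 and 1.55 times the product. The B16F10 ratios of this pair rest on 1 and 5 cells.

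CD8 T cells were split by a UMI of Pdcd1, a receptor known to stay high on T cells that see antigen. Tnfrsf9, the costimulatory receptor 4-1BB, was 1.90, 2.76, 1.07 and 1.39 times as high in cells with Pdcd1 (37, 124, 213 and 285 cells) as in cells without it. Nr4a1 was lower in the cells with Pdcd1 in all 4 libraries, at 85.2 against 113, 92.5 against 129, 32.2 against 38.4 and 32.8 against 53.3 CPM. Its ratios were 0.76, 0.72, 0.84 and 0.61, and the 95% counting interval excluded 1 in the 2 Lrrc25-/- pools (0.545 to 0.937 and 0.436 to 0.856). Nr4a2 did not part the same way, with ratios of 1.01, 0.89, 1.01 and 1.15, nor Nr4a3 (0.69, 0.89, 1.06 and 0.90). The last Nr4a2 ratio, in the Lrrc25-/- MC38 pool, had an interval above 1 (1.02 to 1.31). Fos (1.11, 0.92, 1.02 and 0.88) lay on both sides of 1. Jun was lower in cells with Pdcd1 in all 4 libraries (0.71, 0.61, 0.87 and 0.94), with an interval under 1 in the Lrrc25-/- B16F10 pool (0.46 to 0.80). Junb (0.96, 0.72, 1.08 and 0.84) had intervals under 1 in both Lrrc25-/- pools. Egr1 (2.07, 0.47, 1.03 and 1.10) had one under 1 in the Lrrc25-/- B16F10 pool. Fosb (0.92, 1.03, 0.88 and 0.85) had one under 1 in the Lrrc25-/- MC38 pool. Nr4a1 was therefore not alone in lying lower. Cells with Pdcd1 were deeper, with medians of 5621, 5927, 5436 and 5163 UMIs against 3435, 2343, 4069 and 3676.5, and the part of depth in these ratios was not tested.

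**Figure D3:**
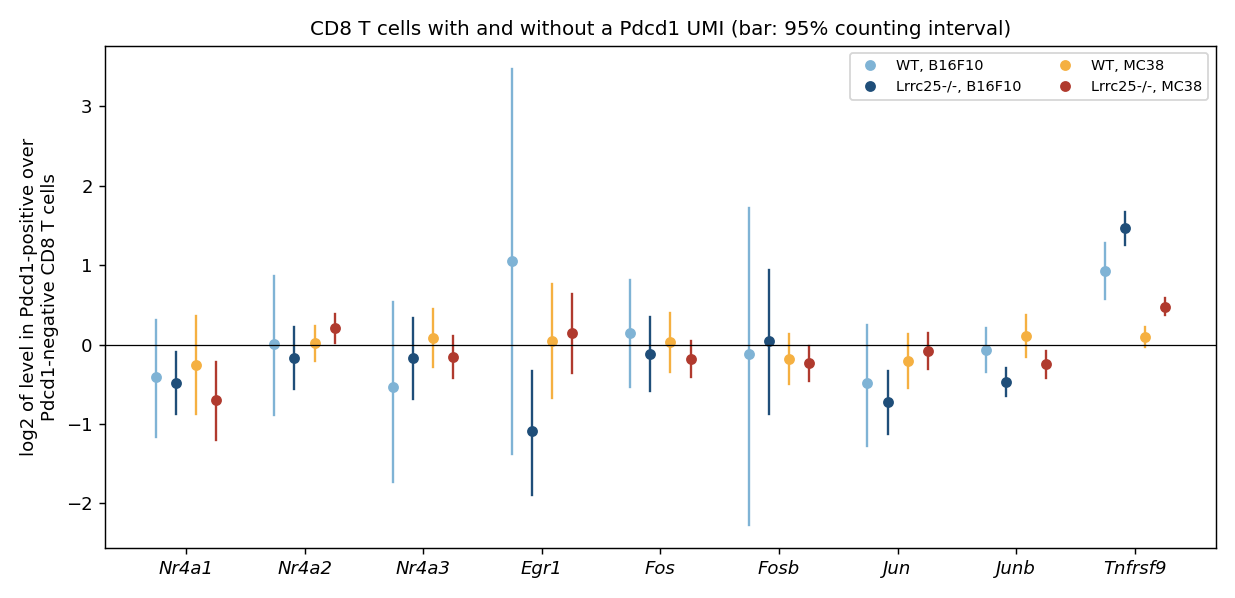
Log2 ratio of the level in CD8 T cells with a Pdcd1 UMI to that in CD8 T cells without one, by gene and library, with 95% counting intervals. The 4 points of Nr4a1 lie under 0 while those of Nr4a2 lie near 0.

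The tumor models were compared in the same 4 libraries, MC38 against B16F10 with genotype as second term. Xist, the RNA of the inactive X chromosome, stood at 0.0362 and 0.0280 CPM in macrophages of the WT and Lrrc25-/- B16F10 pools and at 656 and 665 CPM in those of MC38. Model, day of collection, library and the sex of the mice cannot be told apart. Of 60 tests (members by class) 31 passed, 15 higher and 16 lower in MC38, and 38 passed on library totals without TMM, 25 higher and 13 lower. Fos passed in no class by edgeR (0 of 7 at an unadjusted p under 0.05) or by DESeq2. Without TMM it was higher in MC38 in Treg cells (0.91), macrophages (0.77) and tumor cells (0.83), and in CD8 T cells without a macrophage UMI it was higher by 1.53 (adjusted p = 0.0133). Fosb was higher in MC38 in CD8 T cells (2.72, SE 0.244), Treg cells (2.51, SE 0.472), NK cells (1.99, SE 0.478), macrophages (1.53, SE 0.214) and tumor cells (1.16, SE 0.189). Junb went the other way in CD8 T cells (-1.71), Treg cells (-1.11), NK cells (-2.03), macrophages (-1.13) and migratory dendritic cells (-1.08), and was higher in tumor cells (1.31). Nr4a1 was lower in MC38 in CD8 T cells (-1.87), NK cells (-2.41), macrophages (-1.33), migratory dendritic cells (-1.91) and tumor cells (-1.26).

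Nr4a2 was higher in MC38 in CD8 T cells (1.18, SE 0.229), macrophages (2.21, SE 0.177) and tumor cells (2.42, SE 0.179) and lower in NK cells (-0.80, SE 0.298). In CD8 T cells without a macrophage UMI the Fosb, Junb and Nr4a1 calls stood (2.40, -1.97 and -1.88) and Nr4a2 missed the threshold (0.91, adjusted p = 0.0553). Egr2 was lower in CD8 T cells (-2.79) and macrophages (-1.93). In tumor cells, which come from different lines, Egr3 (7.49), Egr1 (4.85) and Jun (2.96) were higher and Nr4a3 (-3.79) lower in MC38. The share of all genes called higher or lower was 22.9% and 22.1% in CD8 T cells, 24.2% and 24.6% in Treg cells, 15.6% and 14.1% in NK cells, 33.3% and 31.1% in macrophages, 19.4% and 19.5% in migratory dendritic cells and 39.0% and 39.7% in tumor cells. In neutrophils, where 9.37% and 12% of genes were called, none of the 7 members tested passed by edgeR or by DESeq2, and 1 had an unadjusted p under 0.05 (Nr4a3). The median of all genes moved from 0.02 to 0.44 in CD8 T cells when TMM was left out.

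Genes known to rise during dissociation were lower in MC38 in the immune classes. Of the measured genes of that list, 21 of 26 were lower in CD8 T cells (median -1.67), 16 of 24 in Treg cells, 18 of 26 in NK cells, 20 of 27 in macrophages, 9 of 25 in neutrophils and 16 of 27 in migratory dendritic cells. The heat shock genes led: Hspb1 differed by -5.54 and Hspa1a by -5.09 in CD8 T cells. In the immune classes where they were called, Junb, Nr4a1 and Egr2 went the way of this list, as did Egr1 (-1.56) and Jun (-1.06) in macrophages and Nr4a2 in NK cells. Fosb went against it where called, as did Nr4a2 and Nr4a3 in CD8 T cells and macrophages and Jun in migratory dendritic cells (0.91). Nr4a3 in CD8 T cells (0.61) was not called without macrophage UMIs (0.40, adjusted p = 0.426). In tumor cells 17 genes of the list were higher and 7 lower in MC38.

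**Figure D4:**
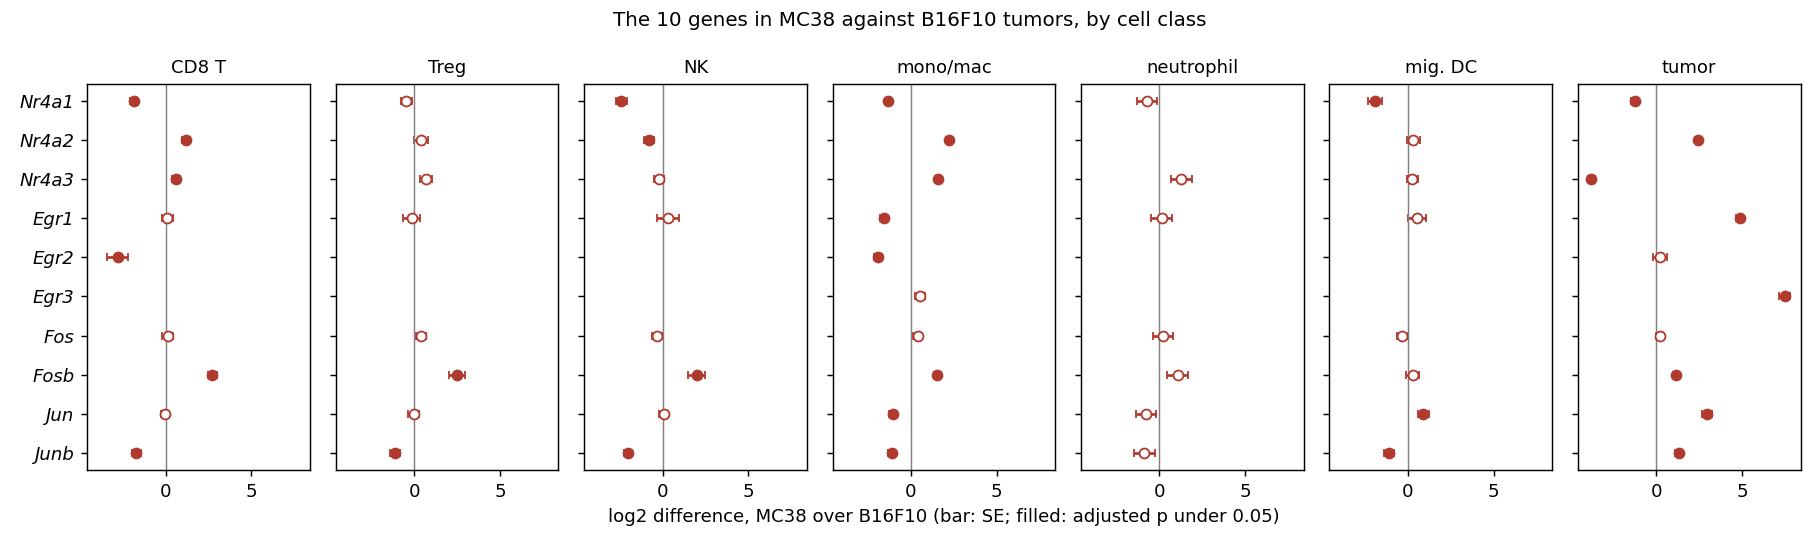
Log2 difference of each gene in MC38 against B16F10 tumors in 7 classes, with SE bars and filled points where the adjusted p was under 0.05. The filled points of Fosb lie right of 0 and those of Nr4a1 left of it.

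Host genotype was compared within each model first, where 1 pool stands against 1 pool and no test is possible. A gene was read as higher or lower when it reached 20 CPM in either pool and 50 UMIs in sum and differed by at least 1.5-fold after adding 1 CPM. Intervals are exact 95% limits of the ratio of counts and cover counting error only. Over the 7 classes, 19 of 45 measured member values in B16F10 passed that size, 16 higher and 3 lower in the Lrrc25-/- pool. For MC38 the count was 24 of 51, 22 higher and 2 lower. Over all genes the share past that size, by class, was 2.33% to 26.9% higher and 0.261% to 20.8% lower in B16F10, and 0.749% to 18% higher and 0.835% to 16.3% lower in MC38.

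In MC38 the AP-1 genes passed the size rule together in lymphoid cells: Fos, Fosb, Jun and Junb were all higher in the Lrrc25-/- pool in CD8 T, Treg and NK cells. By sign alone, whatever the size, Fos, Fosb and Junb lay above the WT level in all 7 classes and Jun in 6, as did 10.9% of 914 genes measured in all 7 classes. None of the 4 passed the size rule in neutrophils. For Fos the ratio was 1.91 (1.65 to 2.22) in CD8 T cells, 1.93 in Treg cells, 1.94 in NK cells, 1.74 (1.71 to 1.78) in macrophages, 1.18 (0.84 to 1.67) in neutrophils, 2.53 (2.14 to 3.00) in migratory dendritic cells and 1.52 (1.45 to 1.59) in tumor cells. In macrophages 0.749% of 5738 genes were higher and 2.53% lower, and Fos was the 1 member past the size rule. Their Nr4a1 level lay slightly lower (0.86, 0.81 to 0.91), and Nr4a2 (1.18) and Nr4a3 (1.13) slightly higher.

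CD8 T cells of the MC38 pools were higher in Fos, Junb (1.71), Jun (1.62) and Fosb (1.54), 4 of 8 measured, against 4.67% of 6162 genes higher and 5.21% lower. The Nr4a receptors stayed under that size there, at 1.03 (0.93 to 1.13) for Nr4a2, 1.35 (1.16 to 1.58) for Nr4a3 and 1.25 (0.97 to 1.63) for Nr4a1. The 4 macrophage genes were also higher in these CD8 T cells, 513 against 199.7 CPM. In CD8 T cells without a UMI of them (215 WT and 135 Lrrc25-/- cells) the log2 values were 0.73 for Fos, 0.83 for Junb, 0.81 for Jun and 0.57 for Fosb, of which Fosb fell short of 1.5-fold. This does not remove RNA of tumor cells, in which Jun stood at 1121 CPM (WT) and 1634 CPM (Lrrc25-/-). The part of that RNA was not tested.

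NK cells of the MC38 pools were higher in all 7 members measured, against 11.8% of 4870 genes higher and 5.38% lower. Their gate marker Klrb1c rose too, from 77.8 CPM (WT) to 217 CPM (Lrrc25-/-), and Ncr1 went from 82.2 to 101 CPM. Whether the make-up of the gated NK cells differed between the pools was not tested. Nr4a1 went from 17.8 to 60.8 CPM (3.42, 1.96 to 6.33), Nr4a2 from 68.9 to 203 CPM (2.94, 2.21 to 3.97) and Junb from 209 to 454 CPM (2.18, 1.84 to 2.59). In the few NK cells without a macrophage UMI (51 and 28), Nr4a2 and Junb still passed, 4 were no longer measured and Jun turned to -0.33 on the log2 scale. Treg cells were higher in all 6 members measured, led by Nr4a3 (2.65, 1.47 to 5.12) and Fosb (2.61, 1.45 to 5.04), against 8.52% of 2912 genes higher and 7.55% lower. Without a macrophage UMI, 33 and 26 Treg cells were left and 5 of the 6 could not be measured. In migratory dendritic cells Nr4a2 (1.80) and Fosb (1.78) joined Fos, against 8.24% of 6045 genes higher. Egr3 in tumor cells was lower (0.54, 0.48 to 0.61), against 0.835% of 6464 genes lower and 0.82% higher, and Egr1 in neutrophils was lower (0.63, 0.44 to 0.90), against 13.8% of 1442 genes.

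By sign alone, Nr4a3 in the Lrrc25-/- B16F10 pool lay above the WT level in all 7 classes, by 0.39 to 1.497 on the log2 scale, and so did Egr1, by 0.10 to 1.77. With TMM scaling Egr1 lay above it in 6 classes and Jun in 7. Neither Nr4a3 nor Egr1 was measured in every class by the size rule, and Nr4a3 fell short of that size in CD8 T cells and tumor cells. Of 635 genes measured in all 7 classes, 8.82% were higher in each. The largest ratio of Nr4a3 was 2.84 (2.16 to 3.79) in migratory dendritic cells, from 118 to 336 CPM, where 21.5% of 3360 genes were higher and 20.8% lower. In those cells Nr4a2 (2.07) and Fosb (1.73) were higher as well. Nr4a1 was lower there (0.47, 0.35 to 0.63), but 28.4% of its UMIs in the WT pool came from the highest 1% of cells, and with classes from clusters the value turned to 0.26 on the log2 scale. Migratory dendritic cells numbered 63 and 197.

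Macrophages of the B16F10 pools were higher in Egr1 (1.64, 1.51 to 1.79) and Nr4a2 (1.64, 1.46 to 1.83) and lower in Fosb (0.66, 0.62 to 0.70), where 4.29% of 4662 genes were higher and 0.922% lower. Fos itself was at 0.89 (0.87 to 0.92) of its WT level, opposite in direction to MC38. In Treg cells Jun went from 44.9 to 131 CPM (2.91, 1.79 to 4.89) and Fos lay at 1.55 (0.99 to 2.43), against 15.5% of 2548 genes higher and 6.59% lower. NK cells were higher in Jun (2.52), Nr4a3 (2.42), Nr4a1 (2.27) and Fos (1.85), from 50 and 115 cells and against 17% of 1132 genes. CD8 T cells were higher in Egr1 (3.67, 1.77 to 8.79) and Nr4a2 (1.65, 1.22 to 2.25), against 15.9% of 5197 genes higher and 5.1% lower, and their macrophage genes were lower in the Lrrc25-/- pool (468 against 1093 CPM). Neutrophils were higher in Egr1 and Nr4a3 and lower in Fos (0.52, 0.34 to 0.84), from 53 WT cells and against 26.9% of 1280 genes higher and 18.6% lower. Melanoma cells were higher in Jun (1.53, 1.47 to 1.59), against 2.33% of 4592 genes.

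**Figure D5:**
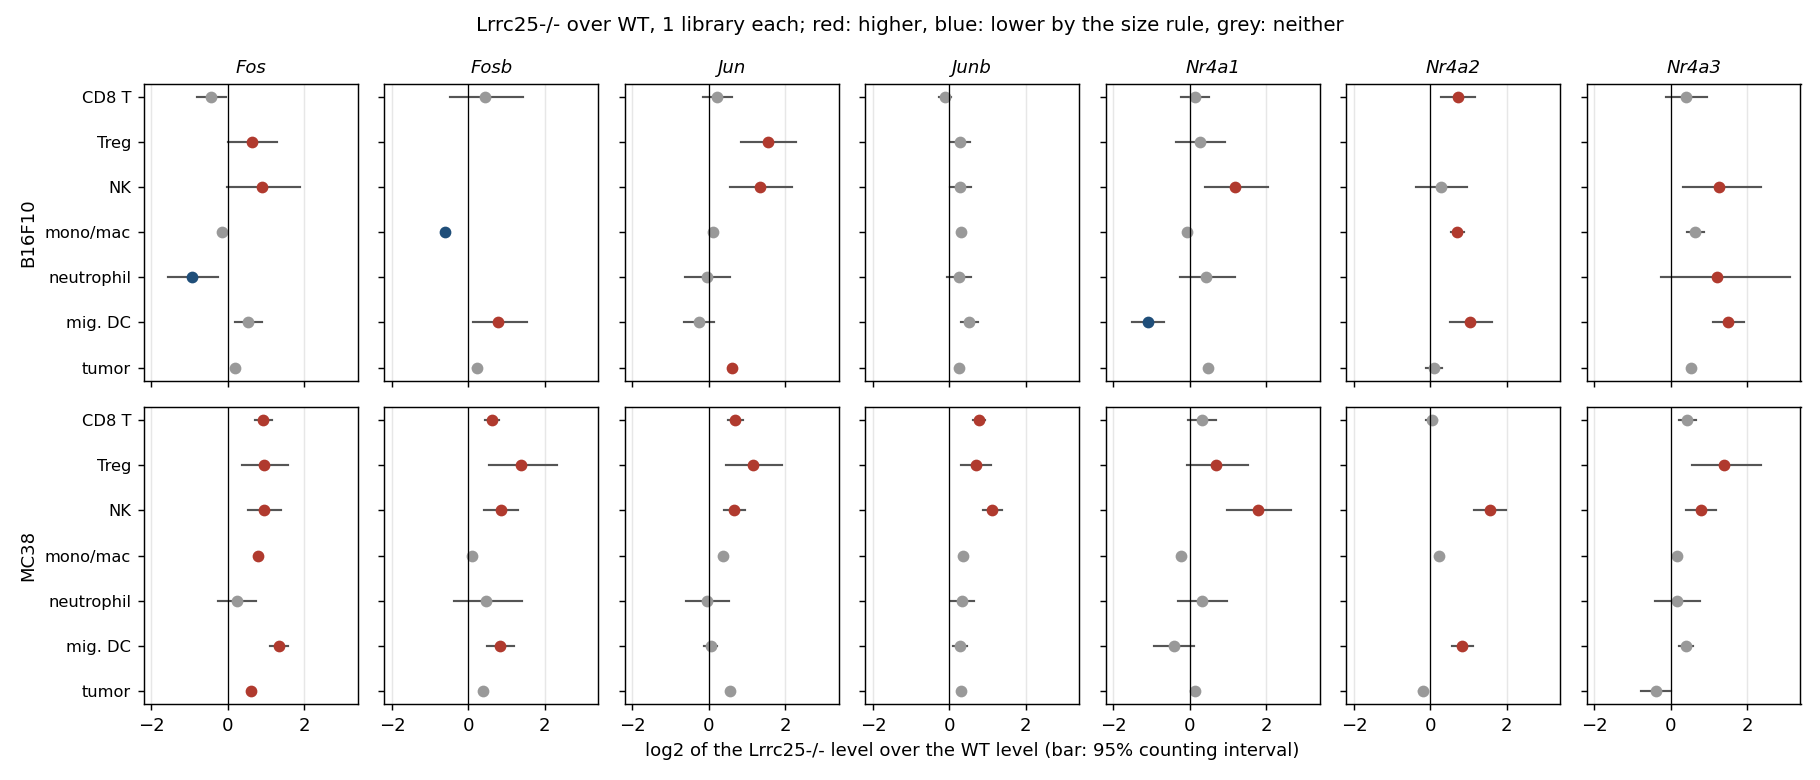
Log2 ratio (x axis) of the Lrrc25-/- level to the WT level by gene, class (y axis) and tumor model, with 95% counting intervals, 1 library on each side. Red points are higher and blue points lower by the size rule, for 7 of the 10 genes and the values with enough UMIs. In MC38 Fos, Fosb, Jun and Junb are red in CD8 T, Treg and NK cells, and in B16F10 every drawn point of Nr4a3 lies right of 0.

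Both models were then fitted together, with genotype tested across 4 libraries and 1 residual degree of freedom. Of the 60 member tests 1 passed: Jun in Treg cells, higher by 1.297 on the log2 scale in Lrrc25-/- hosts (SE 0.314, adjusted p = 0.00978), where 0.178% of 6176 genes were higher and 0.372% lower. In the other classes the genotype fit called few genes, higher and lower: 0.129% and 0.0482% in NK cells, 0.0478% each in macrophages, 0.135% and 0.0337% in neutrophils, 0.6% and 0.518% in migratory dendritic cells and 0.217% and 0.0525% in tumor cells. It rose in both models, from 44.9 to 131 and from 74.6 to 167 CPM. The call did not stand on library totals without TMM (adjusted p = 0.659) or under DESeq2 (adjusted p = 0.99999). For lack of cells, the Treg fit was not repeated without macrophage UMIs. Its p rests nearly on spread pooled over all genes alone, not on the scatter of Jun itself. Fos and Nr4a3 in migratory dendritic cells (1.11, adjusted p = 0.0624, and 1.07, adjusted p = 0.0636) missed the threshold here, with unadjusted p of 0.00091 and 0.000981. DESeq2 called both (adjusted p = 0.0317 and 0.0425) although its unadjusted p were larger (0.00158 and 0.00293), since it adjusted over 846 genes in place of 8497. On library totals without TMM their adjusted p were 0.255 and 0.277. Nr4a3 in Treg cells (1.37, adjusted p = 0.0513) lay nearest to the threshold among those that missed it. Nr4a1 in NK cells (1.44, adjusted p = 0.0744) passed with no filter on low counts (adjusted p = 0.0199). In macrophages, the class with the most cells, Fos differed by 0.34 (SE 0.251), with opposite directions in the models.

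In CD8 T cells the genotype fit called 0 of 9891 genes at an adjusted p under 0.05, with 391 at an unadjusted p under 0.05, and DESeq2 called 1. The 9 members tested there had a median of 0.29 against -0.02 over all genes, and Fos differed by 0.26 (SE 0.299) and Nr4a2 by 0.29 (SE 0.227). Medians of the members lay above those of all genes in the other 6 classes too, at 0.62 in Treg cells, 0.86 in NK cells, 0.21 in macrophages, 0.29 in neutrophils, 0.80 in migratory dendritic cells and 0.23 in tumor cells. Among the other lists, Klf2, a quiescence factor also induced by dissociation, was higher in Treg cells (1.68, adjusted p = 0.000191) and NK cells (1.38, adjusted p = 0.0215) of Lrrc25-/- hosts, while Hspa1a in Treg cells (-1.25, adjusted p = 0.0333) and Hspb1 in NK cells (-2.04, adjusted p = 0.0332) were lower. The named genes of the dissociation list thus moved both ways with genotype, and the list as a whole is not given here.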

How the data were processed

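Single-cell RNA of 4 pooled tumor libraries was captured with the SeekOne 3' droplet kit, per the labels. The deposited matrices hold raw counts (UMIs of each gene in each barcode), which the authors had not normalized. The submitters' processing notes name mm10 as build; for the aligner, counter and cell caller the sources used here give nothing. Cells were kept from 300 genes and 500 UMIs upward if mitochondrial UMIs made up no more than 20%, and the barcodes with the highest doublet scores were removed at 0.5% per 1000 cells (480, 756, 1494 and 1395).

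Cells were gated on marker UMIs. NK cells, macrophages, neutrophils and tumor cells needed at least 4 of the class's list, and macrophages and tumor cells at least 1000 UMIs. CD8 T and Treg cells needed only 2 UMIs of T cell genes. To these CD8 T cells added a Cd8a or Cd8b1 UMI, and Treg cells a Foxp3 UMI or 3 of Ikzf2, Il2ra and Ctla4 with Cd4. Migratory dendritic cells needed 3 UMIs. Lymphoid, dendritic and tumor cells also had to be low in macrophage UMIs, and all classes but tumor cells in tumor markers. Tumor cells had to lack a UMI of the leukocyte gene Ptprc. The MC38 markers were keratins, Epcam and Cldn4, with Sox9, Tnnt2 and Crabp2 added from an earlier look at these data. CPM is the gene's share of all UMIs of a class and library. Summed counts were fitted with edgeR 4.0.16 (R 4.3.3) quasi-likelihood tests after TMM scaling and filterByExpr, with Benjamini-Hochberg adjustment over all genes tested. Classes were compared with the library as a block, which pairs sums of the same pool. Each SE of an edgeR difference was derived from that difference and the F statistic of its test, so it adds no separate evidence. DESeq2 1.42.0 and Leiden clusters (scanpy 1.11.5) were alternatives. Intervals cover counting error only. In the genotype and model fits, p-values rest on what these terms leave unexplained among the 4 pools. In the class fits they rest on how far the class difference varied between pools. With 1 pool per group, neither measures the spread between like pools or between mice. In all these fits edgeR also pooled the spread over genes. For genotype and model in Treg cells, neutrophils, migratory dendritic cells and tumor cells, the p rests nearly on the pooled spread alone. The same holds for the class fit of neutrophils, so there the scatter of the single gene was hardly tested.

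The members and gene lists were chosen with earlier results of these data known. All 10 members were eligible in each comparison, those not named being given by range or count, as were the genes most like Egr2, Nr4a1, Fos and Jun. Of other lists, at most 6 genes per comparison were eligible by largest change among those past the test or size rule. Only these were drawn on. On simulated data for CD8 T cells against macrophages, over 13929 genes, 45% of 2-fold and 79% of 4-fold changes were recovered. For genotype it was 30% and 89% in CD8 T cells (9633 genes) and 54% and 87% in macrophages (14344 genes).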

Additional observations from a re-analysis of the deposited data

Results flagged for a closer look

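Egr1 in neutrophils passed the size rule in opposite directions in the 2 tumor models. It went from 109 to 271 CPM in B16F10 (1.31 on the log2 scale) and from 387 to 242 CPM in MC38 (-0.68), so the log2 ratio of Lrrc25-/- to WT was lower by -1.98 in MC38. The counts behind these levels were 10 and 127 UMIs in B16F10 and 58 and 75 in MC38. The difference between the models was not tested.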

How the results depend on the processing

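No paired analysis was possible because each genotype and model has 1 pool and the labels give no replicate numbers; only sums of the same library could be blocked. Without the replicate block the count of members called was 1 in place of 8 for CD8 T cells against macrophages, 0 in place of 2 for Treg and again 0 for NK cells against CD8 T cells, and 3 in place of 7 for neutrophils against macrophages, while both tumor comparisons kept 9 called. Leaving out each library in turn gave 7 to 8, 1 to 2, 0 to 2 and 4 to 8 called in those 4 comparisons. DESeq2 called 1 member for Treg cells, and classes from clusters gave 1 for NK cells. The genotype fit called 1 member, against 2 under DESeq2, 0 on library totals without TMM, 4 with no filter on low counts and 3 with doublets kept. The model fit called 26 to 38 in place of 31 under the alternatives that kept all classes. With 2-fold in place of 1.5-fold the members past the size rule fell to 10 of 19 in B16F10 and to 7 of 24 in MC38. On cells without a UMI of the 4 macrophage genes, an alternative chosen after seeing the data, 1 of 2 in B16F10 CD8 T cells and 5 of 17 in MC38 lymphoid cells still passed. The likeness medians moved to 0.17 and 0.20 within the Nr4a and Fos groups in MC38 alone and to 0.31 between them in B16F10 alone. Among values past a test or the size rule, those that changed sign were Nr4a1 in migratory dendritic cells of B16F10 with classes from clusters (0.26) and Jun in NK cells of MC38 without macrophage UMIs (-0.33). The cause was not tested. Genotype and model fits without a library and Treg cells from clusters were not run, for lack of residual degrees of freedom or of cells. Without macrophage UMIs, the class, genotype and model fits of Treg and NK cells were not run for lack of cells. The same holds for their genotype values in B16F10. Depth limits Egr2 and Egr3 in lymphoid cells, where no sum held more than 18 UMIs.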

Other observations

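The smaller classes, chosen for mention after their values were seen, gave these levels with no test. B cells, whose antigen receptor is also known to induce Nr4a1, held 293 CPM of Nr4a1 in the WT B16F10 pool (42 cells), 762 CPM in the Lrrc25-/- B16F10 pool (108 cells) and 341 CPM in the Lrrc25-/- MC38 pool (30 cells). These were the highest Nr4a1 levels of the gated classes in both B16F10 pools, while fibroblasts of the Lrrc25-/- MC38 pool stood as high (340.03 CPM). Egr1 in B cells stood at 71.1, 342 and 183 CPM in the same order and Egr3 at 23.7, 79.2 and 33.3 CPM, from 3, 16 and 4 UMIs. Egr2 in B cells reached 39.6 CPM in the Lrrc25-/- B16F10 pool, from 8 UMIs. All 4 genes were highest in the Lrrc25-/- B16F10 pool among those 3 pools.

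Fibroblasts (62, 51, 20 and 21 cells) were high in Fosb and Egr1 in MC38. Fosb stood at 162 and 146 CPM in the B16F10 pools and at 575 and 1164 CPM in the MC38 pools, and Egr1 at 105, 199.96, 442 and 483 CPM. In plasmacytoid dendritic cells of B16F10 (76 and 111 cells) Nr4a1 stood at 149.5 CPM in the WT pool and at 64.4 CPM in the Lrrc25-/- pool, from 40 and 32 UMIs. Type 2 conventional dendritic cells (36 and 41 cells in MC38) held 491 CPM of Nr4a3 in the WT pool and 282 CPM in the Lrrc25-/- pool.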
